A study of Bos taurus with 45 samples.

Results

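A set of 91 genes of the ruminal papillae was described whose mean level was higher on 89% than on 72% grain, and higher on 72% than on 0% grain. They were chosen by a rule from 11516 genes that had over 1 RPM (reads on the gene per 1000000 reads on genes) on at least 1 diet in each of the 15 heifers, out of 24616 genes measured. The level was log2(RPM + 1), and the difference between diets was taken within each heifer and averaged over the 15 heifers. A member had a mean difference from 0% grain of at least 0.585 on 89% grain, which is a fold change of 1.5, and of less than 0.585 on 72% grain, with a gap of at least 0.25 between both differences. A further 5 identifiers were left out by the rule, and 0 of them met its other terms.

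The samples were papilla biopsies from the ventral sac of the rumen of yearling Angus-Hereford cross heifers, labelled as healthy, which all passed through the same rising series of grain diets. Each of the 15 heifers was sampled on 0% grain on day 3, on 72% grain on day 15 and on 89% grain on day 26, giving 45 libraries. The labels of the samples name these diets by 3%, 75% and 92% grain. Every heifer met the diets in the same order, so grain content, days on trial and the earlier biopsies cannot be told apart. Whole papillae were sequenced as bulk RNA, in which fewer cells of a type and less RNA per cell cannot be told apart.

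The ruminal papillae are lined by a stratified squamous epithelium over a core of connective tissue and blood vessels. The epithelium takes up the short chain fatty acids made by fermentation of the feed, converts a share of them to ketone bodies, exports protons and bicarbonate across its membranes, and forms a barrier between the rumen contents and the blood. Feeding more grain speeds fermentation, and the rumen wall is known to respond with growth of the papillae and a change in the make-up of its layers. The files give genes by Ensembl identifier only, and the gene table at hand paired 0 of the 24616 identifiers with a symbol. The members are therefore described by their levels and patterns, marker genes of the epithelium and of other cell types could not be read, and no protein, promoter or transcript sequence is shown.

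In units of 1000000 reads (M), the libraries held 22.5 to 37.1 M reads on genes, with medians of 30.8 M on 0%, 28.4 M on 72% and 31.0 M on 89% grain. These numbers were recovered from the RPM. The paper reports a mean number of reads per sample below each of these medians, and the cause of the gap was not tested. No library was a copy of another, since over 990 pairs of libraries the chi-square of their reads was at least 15.0 per degree of freedom. The library of heifer 286 on 89% grain lay farthest from the median profile of its diet, at a distance of 0.45 on the log2 scale where the next lay at 0.30 and the middle library at 0.27. On 0% grain the farthest library was that of heifer 172, at 0.48 with the next at 0.43, and on 72% grain that of heifer 262, at 0.34 with the next also at 0.34.

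By their mean values the members were not at the 0% level on 72% grain. All 91 had a mean difference over 0 on 72% grain, between 0.15 and 0.55 with a median of 0.33, and 77 of them had 0.25 or more. With TMM scaling 46 members had 0.25 or more, and 47 with median-of-ratios scaling. Over all genes, under the scaling as deposited, 73.3% had a mean over 0 on 72% grain and the upper quartile of the difference was 0.19. The differences on both diets subtract the same 0% libraries, so a gene chosen for a high value on 89% grain also tends to have one on 72% grain. On 89% grain the differences from 0% grain ran from 0.59 to 1.07 with a median of 0.72. The step from 72% to 89% grain ran from 0.25 to 0.67 with a median of 0.38. The share of the final log2 difference that was already present on 72% grain was between 22.6% and 64.5%, with a median of 46.7%, under the scaling as deposited. As ratios of mean RPM, the members stood at 1.28 to 2.41 times the 0% level on 89% grain, with a median of 1.77, and at 0.80 to 1.64 times on 72% grain, with a median of 1.32. These values chose the members and are a description.

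**Figure D1:**
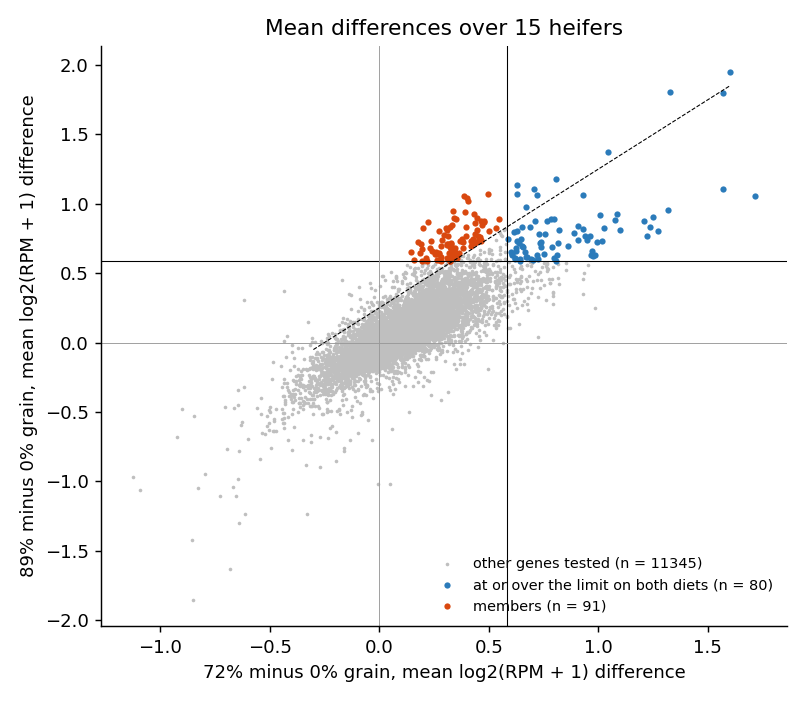
Mean log2(RPM + 1) difference from 0% grain on 72% grain (x axis) and on 89% grain (y axis) for each of the 11516 genes, with the 0.585 limits as solid lines and the gap of 0.25 as a dashed line. The 91 members (orange) fill the wedge left of the 0.585 limit and right of 0, so that each had a mean difference over 0 on 72% grain, and the 80 genes at or over the limit on both diets (blue) lie to the right.

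The set was one of several around the same limits. Of 212 genes with a difference of 0.585 or more on 89% grain, 80 also reached it on 72% grain and 41 lay under it on 72% grain but with a gap of less than 0.25. Another 91 genes reached 0.585 on 72% grain and fell short of it on 89% grain. Over all genes the median difference from 0% grain was 0.08 on 72% and 0.06 on 89% grain, and the median step between those diets was -0.03. The nearest members and non-members were close together at each limit. The 3 members nearest the limit on 89% grain had differences of 0.587, 0.588 and 0.588, and the 3 nearest genes that missed it had 0.571, 0.574 and 0.576. For the limit on 72% grain these were 0.4997, 0.534 and 0.548 inside and 0.627, 0.631 and 0.671 outside. For the gap they were 0.253, 0.263 and 0.264 inside and 0.242, 0.243 and 0.2495 outside.

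Genes were called in limma on log2(RPM + 1) where the fold change exceeded 1.5 and the p adjusted by Benjamini-Hochberg was under 0.05. By these criteria 89 of the 91 members were called higher on 89% than on 0% grain, where 1.78% of all genes tested (205 genes) were. Likewise 0 members were called higher on 72% than on 0% grain, where 1.41% of all genes (162 genes) were. The rule used both contrasts and the same fold change, so these counts carry no information beyond it. Between 89% and 72% grain limma called 0 members and 0 genes higher (0% of all genes), with a smallest adjusted p of 0.0757 over all genes and 0.0762 among the members. At an unadjusted p under 0.05 there were 1330 genes, and edgeR on the recovered reads called 0. Samples pair by heifer, and with the heifer as a replicate block limma called 14 genes, 7 higher (0.0608% of all genes) and 7 lower, and edgeR called 30. Of the 7 higher genes 6 were members, with a smallest adjusted p of 0.0174 in limma. With the block and no fold change minimum 50 genes were higher (0.434% of all genes), 22 of them members. The step is part of the rule, so these counts too are a description. The unpaired comparison did not separate the step from 72% to 89% grain from the spread between heifers for any member. Calls between 89% and 0% grain leaned upward by 205 to 33, and by 142 to 47 with TMM scaling.

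Members differed in how many heifers shared the difference. Between 89% and 0% grain, 21 members were higher in 15 of 15 heifers, 34 in 14, 25 in 13 and 11 in 12 or fewer, with a lowest count of 9. Over all genes 1.42% were higher in every heifer. Between 72% and 0% grain 2 members were higher in every heifer, where 1.95% of all genes were, and 72 members were higher in 12 or fewer. Between 89% and 72% grain 1 member was higher in every heifer, where 0.0434% of all genes were. There 53 members were higher in 12 or fewer. The rule used the means of these same differences, so the counts are a description. Shares over all genes were taken for all 15 heifers only. For 0 of the 91 members did the 15 values on 89% grain all lie above the 15 on 0% grain. This was not counted over all genes, so it is not shown to be particular to the members.

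Most members were genes of low to middling abundance. Mean RPM on 89% grain ran from 2.07 to 169.78 with a median of 8.31, where the median over all genes was 22.04. There were 25 members under RPM 5, 47 between 5 and 20, 19 over 20 and 3 over 50. The median level of the members was 4.90 RPM on 0% grain and 5.98 RPM on 72% grain. The fewest reads that a member had in any library ranged from 5 to 1603, with a median of 44. In all heifers on all 3 diets, 58 members (63.7%) were over RPM 1, where 94.5% of all genes were. A further 21 passed on 72% and 89% grain only, and 10 on 89% grain only, so these entered the set through the high grain diets. RPM is not divided by gene length, so the levels of different genes are not compared further.

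The member with the greatest difference on 89% grain was ENSBTAG00000011896. Its RPM was lowest at 11.4, 35.1 at the median and highest at 83.8 on 0% grain. On 72% grain its lowest, median and highest values were 14.6, 48.5 and 95.5 RPM. On 89% grain they were 20.2, 63.3 and 136 RPM. The 3 ranges overlapped widely, and the heifer with the highest value on 0% grain, heifer 286, had the lowest on 89% grain. The mean RPM was 36.1 ± 18.1 on 0%, 53.8 ± 29.0 on 72% and 76.5 ± 33.6 on 89% grain (SD, n = 15). The mean log2 difference from 0% grain was 0.50 ± 0.75 on 72% grain, over 0 in 10 heifers, and 1.07 ± 1.09 on 89% grain, over 0 in 14 heifers (SD, n = 15). The step between 72% and 89% grain was 0.57 ± 1.13 on the log2 scale and over 0 in 11 heifers, with a spread between heifers larger than its mean.

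The most abundant member was ENSBTAG00000015238. On 0% grain its lowest, median and highest values were 49.0, 88.6 and 165 RPM. On 72% grain these were 80.3, 121 and 242 RPM, and on 89% grain 116, 172 and 244 RPM. The lower end of the range moved up at each diet, whereas the highest values on 72% and 89% grain were alike. The mean RPM was 97.7 ± 31.3, 142.8 ± 49.0 and 169.8 ± 35.4 on the 3 diets in rising order of grain (SD, n = 15). All 15 heifers were above their own 0% level on both high grain diets, by 0.53 ± 0.49 on 72% and 0.83 ± 0.53 on 89% grain (log2 scale, SD, n = 15). Only 11 heifers were higher on 89% than on 72% grain, by a mean of 0.29 ± 0.48, and heifer 236 fell from 242 to 143 RPM.

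**Figure D2:**
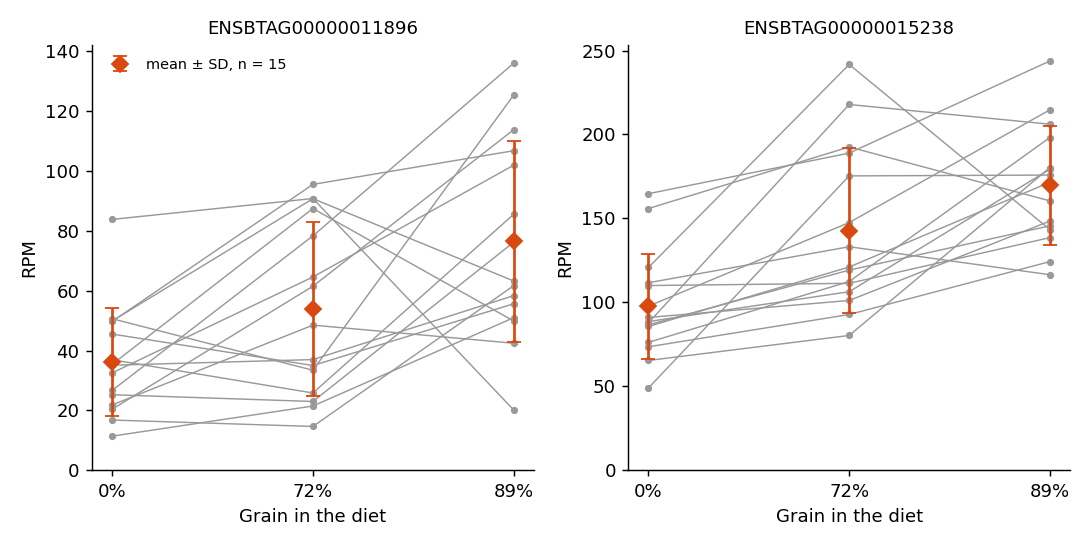
RPM (y axis) of the member with the greatest difference on 89% grain (left) and of the most abundant member (right) on each diet (x axis), with a grey line for each of the 15 heifers and orange diamonds for the mean ± SD. Lines cross freely in the left panel, where the mean went from 36.1 to 76.5 RPM, and lines of all 15 heifers end above their start in the right panel, where it went from 97.7 to 169.8 RPM.

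Among genes that the study pairs with a name, ABCG1 (ENSBTAG00000021272), a transporter that exports cholesterol from cells, and LIFR (ENSBTAG00000010423), the receptor subunit for leukemia inhibitory factor, missed the set by 1 limit each. Among the genes it detected in every heifer on 89% grain only, the study lists with an identifier the 6 with a mean RPM over 5. Of these 6, 0 were members, where 91 of all 11516 genes were, so a count of 0 among so few genes says little. Without a limit on mean RPM, 10 members were over RPM 1 in every heifer on 89% grain only. ABCG1 and LIFR were picked from the 6 after their values were seen. Of the other 4, the differences from 0% grain on 89% grain were 0.20 for CXorf57, 0.03 for RASL1A, 0.07 for CDHR2 and 0.87 for an unnamed gene that also had 0.71 on 72% grain. The RPM of ABCG1 was 3.18 ± 2.0 on 0%, 5.34 ± 2.78 on 72% and 6.38 ± 3.74 on 89% grain (SD, n = 15). Its log2 differences from 0% grain of 0.55 on 72% and 0.79 on 89% grain met both limits, and its gap of 0.24 missed the third. It was higher on 89% than on 72% grain in 8 of 15 heifers. The RPM of LIFR was 3.51 ± 1.64, 4.03 ± 2.22 and 5.35 ± 2.32 on the 3 diets (SD, n = 15). Its gap of 0.38 equalled the median of the members, with 12 of 15 heifers higher on 89% than on 72% grain, but its difference of 0.50 from 0% grain fell short.

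The heifers differed widely in when and how far the members moved. The median difference of the 91 members between 89% and 0% grain was over 0 in 14 of 15 heifers and ran from -0.03 in heifer 170 to 1.32 in heifer 262, where all 91 members were higher. On 72% grain the median was over 0 in 12 heifers and ran from -0.29 in heifer 294 to 1.01 in heifer 172. Between 72% and 89% grain it was over 0 in 14 heifers and ran from -0.42 in heifer 236 to 1.14 in heifer 262. Means of these same differences chose the members, so the counts of heifers are a description. The median of all genes within a heifer moved between -0.23 and 0.17 from 0% to 89% grain, and the value of -0.23 belonged to heifer 286.

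Several courses were seen. Each heifer gave a single library per diet, so its course cannot be told apart from variation between biopsies. The members varied together within a diet, so they are not replicates of a heifer. In heifers 172 and 362 the medians on 72% grain, 1.01 and 0.98, already came near those on 89% grain, 1.26 and 1.06. In heifers 314 and 262 the medians on 72% grain were -0.02 and 0.25, and those on 89% grain 0.70 and 1.32, so that most of the change came at the last step. In heifer 236 the median was higher on 72% grain, at 0.72, than on 89% grain, at 0.36. It had 14 of 91 members higher on 89% than on 72% grain. In heifer 170 the set hardly moved, with 36 members above the 0% level on 72% grain and 42 on 89% grain.

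The summed RPM of the 91 members showed how the starting levels differed. Heifer 170 had 1295 RPM on 0% grain, 1257 on 72% and 1271 on 89%, and so began at the level where others ended. Heifer 172 went from 502 to 1024 to 1261 RPM, and heifer 262 from 524 to 681 to 1435 RPM. Over the 15 heifers the lowest, median and highest sums were 502, 775 and 1295 RPM on 0% grain. They were 681, 1024 and 1592 RPM on 72% grain and 1125, 1273 and 1740 RPM on 89% grain. The lowest sum thus moved by more than the highest.

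**Figure D3:**
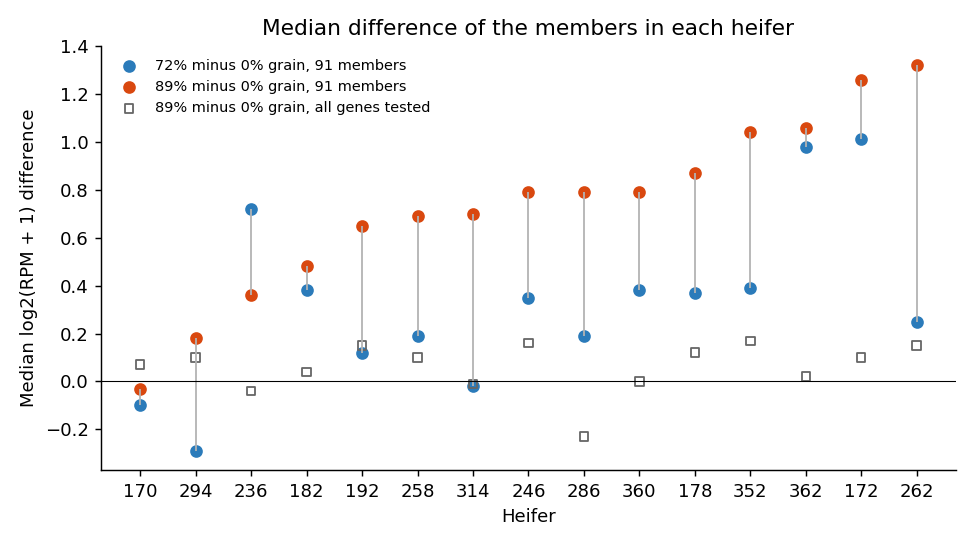
Median log2(RPM + 1) difference from 0% grain (y axis) in each of the 15 heifers (x axis, ordered by the value on 89% grain), for the 91 members on 72% grain (blue) and on 89% grain (orange) and for all 11516 genes on 89% grain (open squares). The orange points run from -0.03 to 1.32, the blue points range from -0.29 to 1.01 and do not follow the same order, and the squares stay between -0.23 and 0.17.

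The spread of the members between heifers was wide on 0% grain and narrower on 89% grain. The median SD of log2(RPM + 1) between heifers was 0.48 on 0%, 0.41 on 72% and 0.32 on 89% grain for the members, and 0.22, 0.20 and 0.21 for all genes. As a coefficient of variation of RPM the medians were 40.5%, 36.0% and 25.8% for the members against 16.7%, 14.9% and 15.6% for all genes. Counting error alone, at the mean number of recovered reads of the members, would give medians of 8.16%, 7.6% and 6.19%. This takes each recovered read as a separate count. The SD was smaller on 89% than on 0% grain in 83 members (91.2%), where it was in 57.3% of all genes. Of the members, 10 passed the filter of RPM over 1 in every heifer on 89% grain only, and 21 on 72% and 89% grain only. For these the filter keeps out low values on 89% but not on 0% grain, so the narrower spread is a description. For the 80 genes at or over 0.585 on both diets the median SD was 0.53, 0.45 and 0.46, so they too varied more than the median gene.

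**Figure D4:**
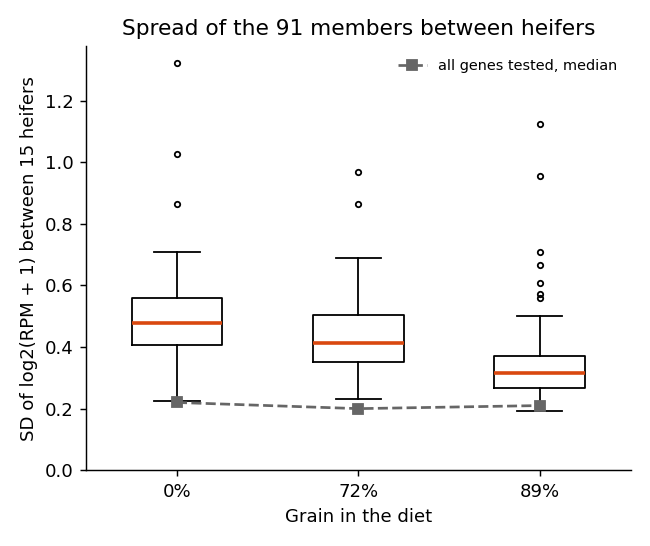
SD of log2(RPM + 1) between the 15 heifers (y axis) for the 91 members on each diet (x axis), as boxes from the lower to the upper quartile with the median in orange, whiskers to 1.5 times that range and single genes beyond as circles, beside the median of all genes (grey squares). The orange median goes from 0.48 to 0.41 to 0.32 while the grey median stays between 0.20 and 0.22.

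Within a diet, the members varied together from heifer to heifer. This likeness was taken as Pearson's r between genes over the 15 libraries of 1 diet, and so did not use the differences between diets. The libraries are the ones whose means chose the members, and genes measured in the same libraries share their scaling, so r is given as a description. Over the 4095 pairs of members the median r was 0.64 on 0%, 0.67 on 72% and 0.46 on 89% grain. Over pairs of all genes it was 0.05, 0.04 and 0.15. The 3160 pairs among the 80 genes at or over 0.585 on both diets, which were chosen from the same libraries by a like rule, had medians of 0.14, 0.14 and 0.10. Members paired with those 80 genes had medians of -0.09, 0.06 and -0.06, beside the 0.05, 0.04 and 0.15 of all genes. A median near 0 does not tell whether some of the 80 genes varied with the members or against them.

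The likeness was also taken without the libraries that lay apart. Without heifer 172 on 0%, heifer 262 on 72% and heifer 286 on 89% grain the medians were 0.60, 0.63 and 0.48 for the members and 0.06, 0.04 and 0.04 for all genes. On 89% grain leaving out heifer 286 thus lowered the median of all genes from 0.15 to 0.04 and left that of the members at 0.48 against 0.46. Leaving out the heifers with the highest and lowest scores of the set on each diet gave medians of 0.50 without heifers 170 and 172 on 0%, 0.52 without heifers 236 and 262 on 72%, and 0.36 without heifers 352 and 182 on 89% grain. All genes had 0.06, 0.04 and 0.17 in the same libraries, so the medians lay closest on 89% grain.

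**Figure D5:**
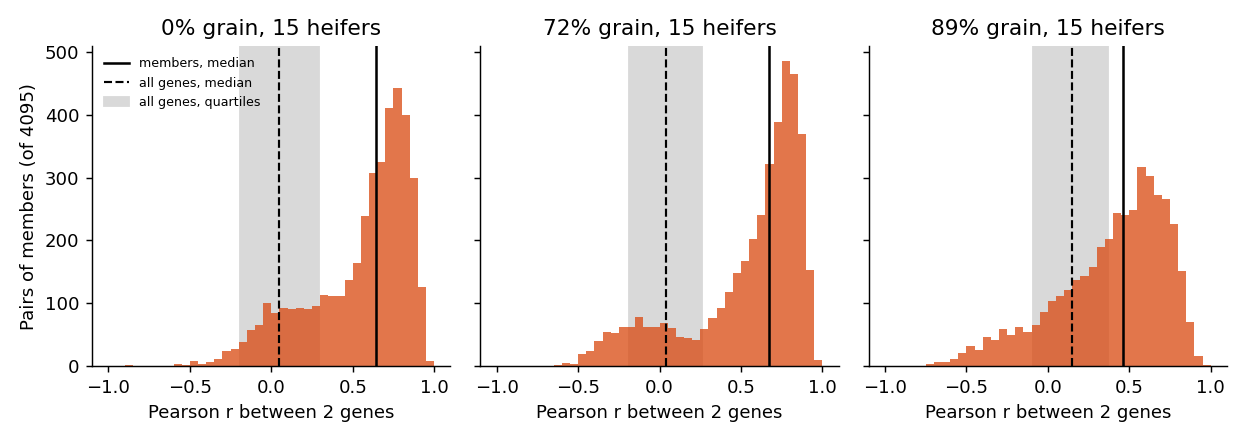
Number of pairs of members (y axis, of 4095) by Pearson's r over the 15 heifers of 1 diet (x axis), with the median of the members (solid line) and the median and the range between the quartiles of pairs of all genes (dashed line and grey band). The members' medians of 0.64, 0.67 and 0.46 lie to the right of the grey band on each diet, and a tail of pairs falls inside it or under 0.

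A single axis held much of this variation. The first principal component of the members, each scaled to unit variance, held 61.5% of their variance on 0%, 64.1% on 72% and 49.2% on 89% grain, where the first component of all genes held 21.8%, 18.7% and 24.2%. Loadings had the same sign in 89, 84 and 86 of the 91 members. The highest score belonged to heifer 170 on 0%, heifer 236 on 72% and heifer 352 on 89% grain, and the lowest to heifers 172, 262 and 182. On each diet another heifer stood at the top. The share of the variance about the diet means that lay between heifers had a median of 0.26 in the members, from 0.02 to 0.72, and of 0.19 in all genes. It was over 0.5 in 4 members (4.40%) and in 8.57% of all genes, and for the median member the larger part of the variance lay between samples of the same heifer.

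The likeness was broad but not complete. Of the 91 members, 52 had a median r over 0.5 with the others on every diet and 83 had one over 0 on every diet. The most abundant member, ENSBTAG00000015238, had medians of 0.77, 0.78 and 0.55 with the other 90. Exactly 1 member had a median at or under 0 on all 3 diets, namely ENSBTAG00000011896, the one with the greatest difference on 89% grain. Its medians were -0.05, -0.29 and -0.21, with 30, 8 and 24 of the other 90 members at an r over 0. It met the rule as they did and differed from most of them in which heifers were high.

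The 15 pairs among the 6 members with the greatest difference on 89% grain were tested over the 15 heifers on that diet, by two-sided permutation tests with 100000 resamples and Benjamini-Hochberg adjustment over the 15 pairs. Pearson's r ran from -0.48 to 0.83 and Spearman's rho from -0.59 to 0.86. The 10 pairs without ENSBTAG00000011896 all had a positive r, of 0.52 to 0.83. Of these, 9 had an adjusted permutation p under 0.05 for r. Pairs of all genes on that diet had a median r of 0.15 and an upper quartile of 0.37. The share of them that would pass was not counted, so 9 is not shown to be particular to the members. Means over these same libraries chose the 6 genes. The 5 pairs with ENSBTAG00000011896 all had a negative r, of -0.48 to -0.14, with adjusted permutation p of 0.094 to 0.63 for r. By rho 10 pairs passed, 1 of them negative. The closest pair had an r of 0.83 (permutation p = 0.00015, adjusted p = 0.0011) and a rho of 0.86 (permutation p = 0.00011, adjusted p = 0.0016). Pairs were also tested without the 2 heifers farthest from the median of the pair's first gene. The closest pair then had an r of 0.76 (adjusted permutation p = 0.043). With 2 heifers left out in this way 10 pairs again had an r over 0, of 0.31 to 0.76, but 2 of the 15 pairs passed. Among the pairs no longer past the threshold, 3 had an r of 0.68, 0.66 and 0.64 (adjusted permutation p = 0.053, 0.057 and 0.057). Leaving out the extremes of a gene also narrows its range, which tends to lower r. Fewer samples, the narrower range and the loss of particular heifers were not told apart.

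The size of the set depended on the scaling of the libraries. Members were chosen by their differences under the scaling as deposited, so the directions given here are a description. With TMM scaling, 90 of the 91 members still passed the filter on low values. All 90 had differences over 0 on 72% and on 89% grain and a step over 0, with medians of 0.25, 0.67 and 0.41. Of these, 68 kept a difference of 0.585 or more on 89% grain. The medians of all genes were then -0.01 on 72% and -0.01 on 89% grain.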

How the data were processed

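RNA of ruminal papillae was sequenced from 15 heifers on 3 diets, 45 samples in all. The authors demultiplexed reads with CASAVA 1.8, aligned them to the bovine UMD 3.1 genome with TopHat 2.0.10 and counted them on Ensembl genes (htseq-count). The deposited values, for 24616 genes, are RPM, scaled by the authors to 1000000 reads on genes per library. All values (100%) came out as whole reads within 0.01 of a read, which gave 22.5 to 37.1 M reads (M, 1000000 reads) per sample. RPM 1 thus stood for at least 22.5 reads.

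Libraries were grouped by the sample labels, which give the diet and the heifer. Members were found by the stated rule on log2(RPM + 1). The members and gene lists were chosen with earlier results of these data known. All 11516 detected genes were fitted in limma 3.58.1 (R 4.3.3), with a variance trend, pseudocount 1, adjusted p under 0.05 and fold change over 1.5, on the 30 samples of the 2 diets compared. The heifer as replicate block, edgeR 4.0.16 on the recovered reads, other pseudocounts, TMM and median-of-ratios scaling, other filters and each heifer left out in turn were alternatives. Samples pair by heifer because they came from the same animal. Median r, principal components and the intraclass share used Python 3.11.15 with numpy 2.4.6. The limma and edgeR fits were tested on simulated data. Named members are the one with the largest difference and the one with the highest mean RPM, since no member's identifier was paired with a symbol in the sources used here. For the same reason the correlated pairs were the 6 members with the largest difference, where the design asked for members with a symbol, and fixed gene lists of symbols (pathways and cell type markers) were not analysed here. The lane of each sample is not given in the sources used here, and ruminal pH was not used here.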

Additional observations from a re-analysis of the deposited data

How the results depend on the processing

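The set held 91 genes by the rule and 121 with pseudocount 0.1 (81 shared), 104 with pseudocount 0.5 (90 shared), 75 with TMM scaling (68 shared), 74 with median-of-ratios scaling (68 shared), 103 with a filter on mean RPM or with none (91 shared), and 101 with medians over heifers (73 shared). Leaving out each heifer gave 67 (without heifer 262, 64 shared) to 108 (without heifer 236), and 92 without heifer 286 (84 shared).

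Between 89% and 0% grain limma called 238 genes, 358 with pseudocount 0.1, 2076 with no fold change minimum, 310 with edgeR and 189 to 265 with 1 heifer left out. Between 72% and 0% grain it called 177, 307 with pseudocount 0.1, 2343 with no minimum, 198 with edgeR and 150 to 209 with 1 heifer left out. Pairing by heifer, as a replicate block, changed these to 250 and 185. Between 89% and 72% grain it called 0, 14 with the replicate block, 30 by edgeR with the block, and 2 each with TMM and median-of-ratios scaling. There, leaving out 1 heifer gave 0 to 8, with 8 without heifer 236, 2 without heifer 170 and 1 without heifer 182. The fold change minimum acts by its construction, and for the others the cause was not tested.

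Of the 15 pairs tested, 9 passed, and 2 passed without the 2 heifers farthest from the median of the pair's first gene. The share passing among pairs of all genes was not counted. Leaving out those heifers also lowers the number of samples. Members with a difference of 0.25 or more on 72% grain numbered 77, 46 with TMM and 47 with median-of-ratios scaling. The log2 differences of both named members kept their direction in all 80 repeats. Both met the rule by these same values, so this is a description. Repeats without single libraries or with TMM scaling of the heifer share were chosen after seeing the data. Alternatives on the fixed gene lists were not run. Counts as low as 5 reads in a library limit the precision of the least abundant members.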
